A study of Mus musculus with 6 samples.

Results

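The collagen chains of mouse lung were read on 6 Affymetrix arrays. A probe set belonged to the group if its only gene symbol on the platform was Col, a number, the letter a and a number. This gave 44 of 12488 probe sets, which stand for 31 of the 8251 genes on the arrays, and the rule itself uses symbols only. Of these, 29 probe sets of 20 chains passed a filter on low signal and were tested, and 15 probe sets did not. Another 11 chains had no probe set above the filter.

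Whole lung came from mice labelled C57, DBA and ICR, the last being an outbred stock. Each strain gave 1 control array and 1 smoked array. The smoked mice breathed the smoke of 3 cigarettes per day, on 5 days per week over 4 weeks. For the control mice the labels give no exposure. No transgene or other agent is named, the title of each sample ends in the same mouse number, and age, sex and whether an array holds RNA of 1 animal or a pool are all not given in the sources used here. The series title asks about lung resistance or sensitivity to smoke without saying which strain is which.

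Collagens are triple helices wound from 3 alpha chains, each chain being the product of its own gene. Fibrillar types I, III and V give the airways, vessels and septa of the lung their tensile strength, and type IV forms the sheet-like network of basement membranes on which alveolar epithelium and endothelium rest. Type VI makes beaded filaments beside these membranes, type VII anchors epithelium to the stroma, and the remaining types coat fibrils, cross the plasma membrane or carry sugar chains at the basement membrane. Much of the collagen RNA of a lung comes from fibroblasts, smooth muscle, pericytes and endothelium.

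Intensities are given as log2 of the deposited value plus 8.05, quantile normalized over the arrays, and called normalized log2 intensity. Levels of different probe sets are not compared, since each binds with its own strength. The median deposited intensity was between 52.2 and 84.8 on 5 arrays and 25.9 on the ICR smoked array. That array also had the highest ratio of 3' to 5' signal, 4.75 for actin against 1.46 to 2.75 elsewhere and 2.39 for Gapdh against 0.952 to 1.69, and the part of these ratios in the results was not tested. Without that array no collagen probe set was called between strains, and without the ICR pair none was called for smoke. Here and below, sums of markers are of normalized intensity, with the log and the constant undone. Lung epithelium markers, 6 of 8 measured, summed to between 24516 and 28178 on control arrays and between 25259 and 29127 on smoked arrays. This sum holds Scgb1a1, an airway gene, beside alveolar markers. Quantile normalization gives all arrays the same set of values, so a sum over the brightest probe sets is held close by the scaling. Sftpc, the marker of alveolar type II cells, was between 7184 and 10579 in deposited intensity. With 3 pairs and single arrays per group, p-values measure the spread between these samples only.

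**Figure D1:**
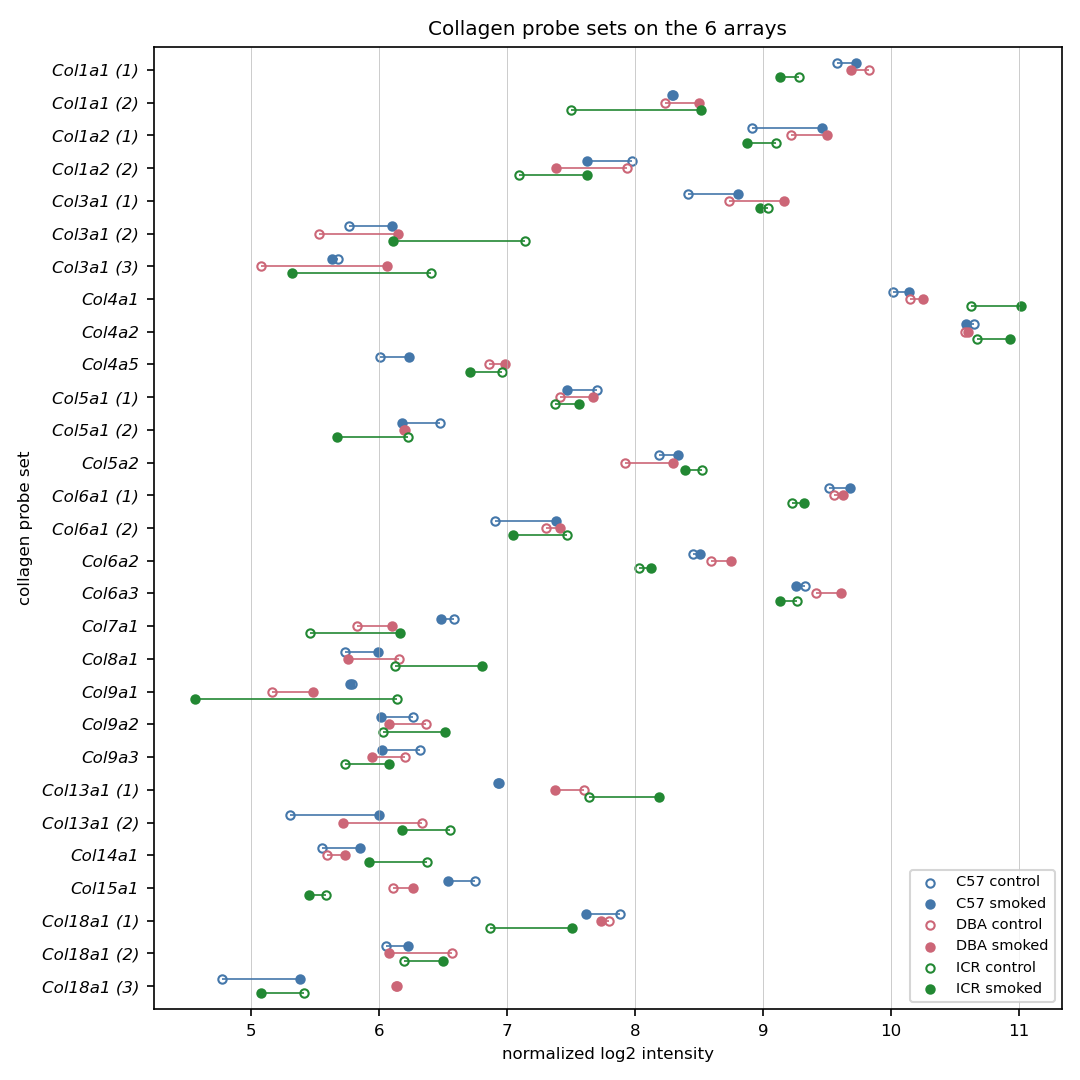
Normalized log2 intensity (horizontal axis) of the 29 collagen probe sets that passed the filter; open points are control arrays, filled points smoked arrays, and a line joins the pair of each strain. Probe sets of 1 chain are numbered by falling mean signal; the widest pair is that of Col9a1 in ICR, at 6.14 and 4.56.

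The smoke exposure left no collagen chain past the test. The shared effect of smoke was fitted with limma over 3 strain pairs, with Benjamini-Hochberg adjustment over 7453 probe sets, and a call needed an adjusted p below 0.05. None of the 29 collagen probe sets was called and none had an unadjusted p below 0.05, where 0.0403% of all probe sets were called and 122 of 7453 had an unadjusted p below 0.05. The estimates ran from -0.43 for Col9a1 to 0.43 for Col1a1 (probe set 103709_at), on the log2 scale, with standard errors from 0.15 to 0.37. On the quantile normalized scale the 95% interval excluded a 2-fold change in either direction for 28 of the 29 probe sets. The exception was Col9a1, whose interval reached -1.26. Intervals without scaling are not given here, so the bound holds for that scale only. Unscaled, the median over all probe sets was -0.21, with 4 collagen probe sets above 0 and 25 below.

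The median over the 29 probe sets was 0.05, beside 0.01 over all probe sets tested, and 16 were above 0 and 13 below. Only 4 of 29 moved the same way in all 3 pairs, where 17.6% of all probe sets did (9.86% higher and 7.77% lower). Col4a1, Col6a1 (95493_at) and Col6a2 were higher in every smoked array and Col5a1 (101080_at) lower. When arrays were centred on a common median in place of quantile normalization, Col4a1 was the single member that kept a common direction, and without any scaling none was higher in all pairs and 2 were lower.

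**Figure D2:**
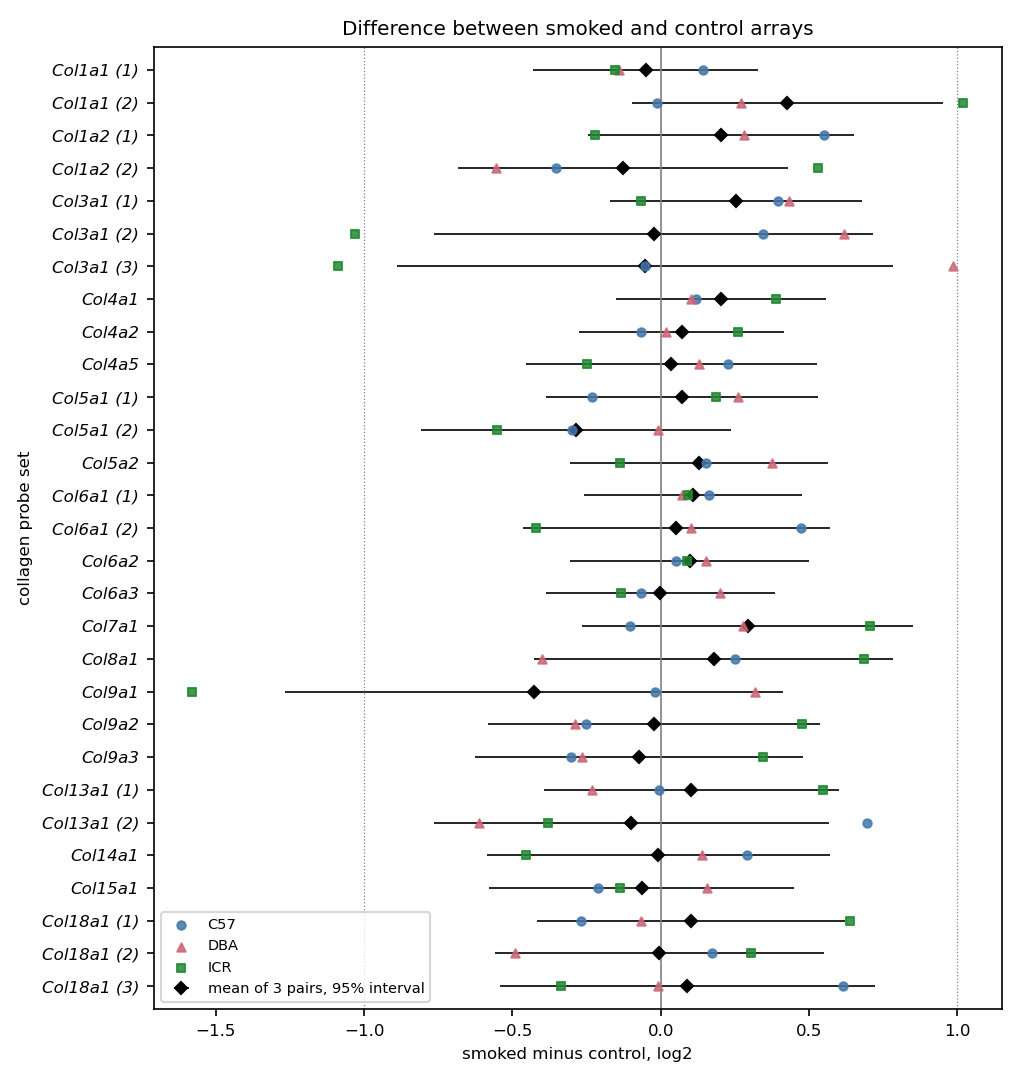
Smoked minus control difference in normalized log2 intensity (horizontal axis) for each collagen probe set; coloured points are the strains, black diamonds the mean of 3 pairs with its 95% interval, and dotted lines mark 2-fold. Each interval covers 0, and the ICR points of Col9a1, Col3a1 (2) and (3) and Col1a1 (2) lie beyond 2-fold.

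Among fibrillar collagens, 8 chains were measured and 5 passed the filter with 10 probe sets. Col1a1, which supplies 2 of the 3 chains of type I collagen, gave 9.58 on the control and 9.73 on the smoked array of C57, 9.83 and 9.69 in DBA, and 9.29 and 9.13 in ICR (probe set 94305_at). Control and smoked values overlapped, and the shared difference was -0.05 (SE 0.17, 95% interval -0.43 to 0.33). Col1a2, the partner chain of type I, read 8.91 and 9.46 in C57, 9.22 and 9.50 in DBA, and 9.10 and 8.88 in ICR (101130_at), higher with smoke in C57 and DBA and lower in ICR. Its shared difference was 0.20 (SE 0.20).

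Col3a1, the type III chain of reticular fibres and vessel walls, had 3 probe sets above the filter. The brightest, 98331_at, gave 8.41 and 8.81 in C57, 8.73 and 9.17 in DBA, and 9.04 and 8.98 in ICR, a shared difference of 0.25 (SE 0.19, 95% interval -0.17 to 0.68). Here too C57 and DBA were higher with smoke and ICR was slightly lower. Col5a1 (93472_at), a chain of type V, which sits inside type I fibrils and limits their width, read 7.70 and 7.47 in C57, 7.41 and 7.67 in DBA, and 7.38 and 7.56 in ICR. Its partner Col5a2 read 8.19 and 8.34 in C57, 7.92 and 8.30 in DBA, and 8.53 and 8.39 in ICR. The shared differences of the type V chains were 0.07 (SE 0.20) and 0.13 (SE 0.19), and control and smoked arrays overlapped for both.

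Over the 5 fibrillar chains above the filter, each by its brightest probe set, the C57 pair had a median difference of 0.15, the DBA pair of 0.28 and the ICR pair of -0.14. The medians over all genes above the filter were -0.02, 0.04 and 0.02. In C57 and in DBA 4 of the 5 chains were higher with smoke, and in ICR 1 of 5 was, beside 2682, 3131 and 2954 of 5735 genes. Over all 10 fibrillar probe sets the counts were 5, 7 and 3 of 10. Median scaling gave chain medians of 0.08, 0.31 and -0.25, and no scaling 0.09, 0.58 and -1.07. Over all 10 probe sets the medians were 0.07, 0.28 and -0.14. With median scaling these were -0.02, 0.30 and -0.25, so the C57 median changed sign. Whether the strains differed in this was not tested for the chains as a group. Fibroblast markers, 11 of 12 measured, summed to a normalized intensity between 8269 and 9454 on control arrays and between 8666 and 9671 on smoked arrays, and smooth muscle and pericyte markers, 8 of 10 measured, to between 2235 and 3481 and between 2577 and 3500. No marker of either list was below the constant of 8.05 on every array, and their part in the collagen values was not tested. In whole tissue, fewer cells of a type and less RNA per cell cannot be told apart.

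Of the basement membrane chains, 5 were measured and 3 passed the filter. Col4a1 and Col4a5 had strain differences with an unadjusted p below 0.05 that did not pass adjustment, and Col4a2 had none. Type IV collagen is built mainly from Col4a1 and Col4a2, which lie head to head on chromosome 8. In the promoter entries used here they start on opposite strands at bases 11312826 and 11312805, 21 bases apart, so their 5' ends overlap. Their promoter windows (RefSeq, GRCm38.p6, 250 bases before to 50 after the start) are printed because both chains are transcribed from this shared stretch and because their strain differences are set side by side in what follows. Capitals mark the 78 bases that both windows hold, and each is written on the strand of its gene: Col4a1 is chr8:11312777-11313076 on the minus strand and Col4a2 is chr8:11312555-11312854 on the plus strand.
Col4a1: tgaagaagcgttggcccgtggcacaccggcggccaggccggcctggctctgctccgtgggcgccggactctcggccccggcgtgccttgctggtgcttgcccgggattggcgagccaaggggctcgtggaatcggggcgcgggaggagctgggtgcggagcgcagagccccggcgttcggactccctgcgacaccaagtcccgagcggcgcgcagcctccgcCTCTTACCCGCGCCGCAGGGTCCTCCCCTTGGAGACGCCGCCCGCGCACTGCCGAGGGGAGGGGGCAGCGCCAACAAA
Col4a2: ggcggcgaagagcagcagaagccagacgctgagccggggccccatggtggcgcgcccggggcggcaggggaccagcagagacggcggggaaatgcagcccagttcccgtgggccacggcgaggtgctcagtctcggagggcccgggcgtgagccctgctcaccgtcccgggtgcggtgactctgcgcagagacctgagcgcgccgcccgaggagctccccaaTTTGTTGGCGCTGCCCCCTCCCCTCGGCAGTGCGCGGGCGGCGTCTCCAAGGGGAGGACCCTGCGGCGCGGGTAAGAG

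Of the 31 chains, 22 had at least 1 promoter entry in RefSeq, 25 entries in all. The letters CCAAT were found in 9 of the 25 (36%), where 37.4% of 32851 promoter windows of the same length hold it. The letters GGGCGG, a core of Sp1 sites, were found in 13 of 25 (52%), against 35.7%, and TATAAA in 5 of 25 (20%), against 13.6%. The only GGGCGG match of the Col4a1 window is a site shared with the Col4a2 window. Some chains also have several entries, so the 25 windows are not independent. The letters TNGCGTG were found in 0 of 25, against 5.07%, and TGACNNNGC in 5 of 25 (20%), against 12.4%, the Col4a2 window among them. Each motif was searched on both strands and counted on its own, so matches of different motifs may share letters. Both type IV windows hold CCAAT and GGGCGG and neither holds TATAAA. Each match is a description of the letters only.

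Col4a1 gave 10.02 on the control and 10.14 on the smoked array of C57, 10.15 and 10.25 in DBA, and 10.63 and 11.02 in ICR. Both ICR arrays lay above all others, and within each strain the smoked array was the higher. The shared smoke difference was 0.20 (SE 0.16, 95% interval -0.15 to 0.56). ICR exceeded C57 by 0.74 (SE 0.19, unadjusted p = 0.0038, adjusted p = 0.0907, limma) and DBA by 0.62 (SE 0.19, adjusted p = 0.174), so neither passed. Without scaling between arrays these differences were -0.02 and -0.20, so the order of the strains rests on the scaling.

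Col4a2 gave 10.65 and 10.59 in C57, 10.58 and 10.60 in DBA, and 10.67 and 10.93 in ICR. The ICR arrays were again the highest after scaling, by 0.18 against C57 (SE 0.19) and 0.21 against DBA (SE 0.19), but the deposited values were lowest in ICR: 1515 and 1017, against 1908 and 1792 in C57 and 1713 and 2084 in DBA. Col4a5, an X-linked chain of the alveolar and glomerular basement membrane, gave 6.01 and 6.24 in C57, 6.86 and 6.99 in DBA, and 6.96 and 6.71 in ICR. Both C57 arrays lay below the other 4, by 0.80 against DBA (SE 0.26, adjusted p = 0.244) and 0.71 against ICR (SE 0.26, adjusted p = 0.205), the latter being 0.06 without scaling. Endothelial markers, 10 of 10 measured, summed to 11854 and 11270 in C57, 12768 and 12780 in DBA, and 12711 and 15482 in ICR, highest on the ICR smoked array, and their part in the type IV values was not tested.

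**Figure D3:**
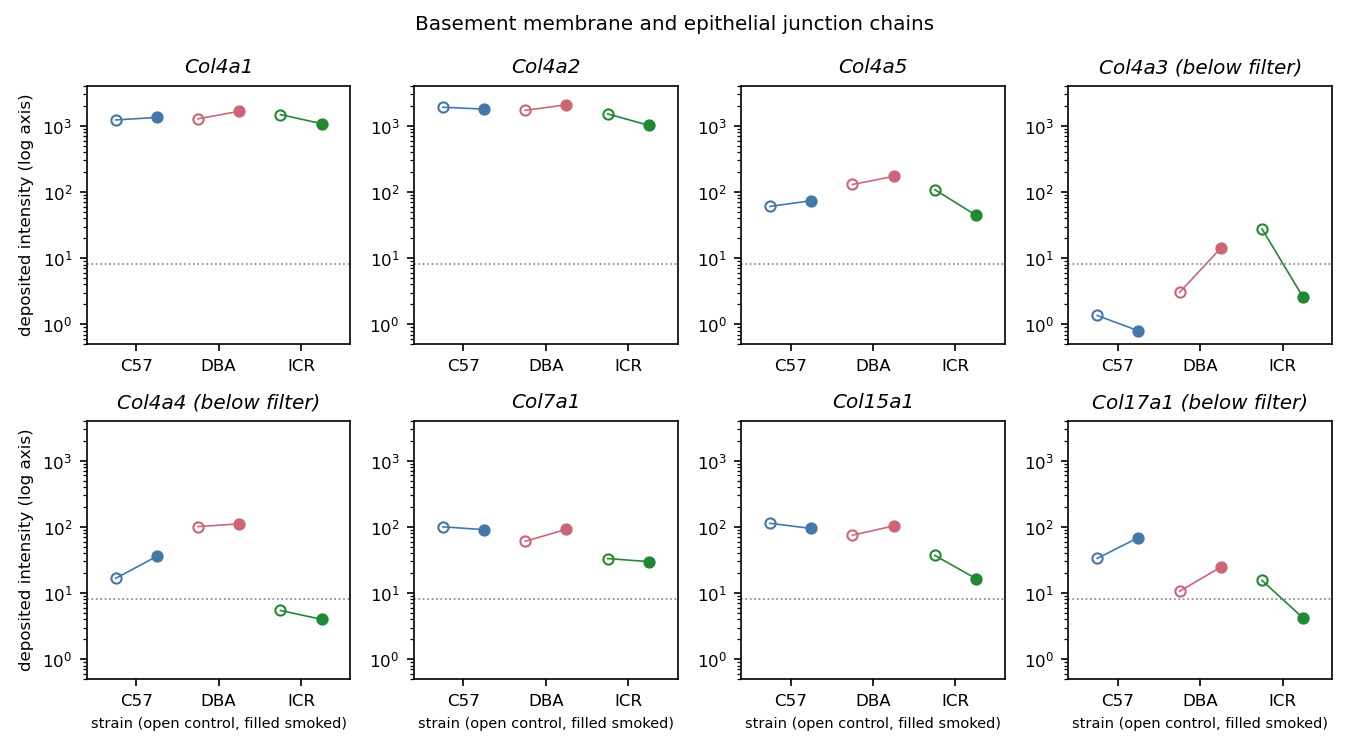
Deposited intensity (log axis, before scaling between arrays) of type IV chains and of chains at epithelial or vascular basement membranes; open points are control and filled points smoked arrays, and the dotted line is the constant of 8.05 added before the log. Deposited Col4a1 falls from 1478 to 1078 on the ICR arrays while its normalized value is higher with smoke; Col4a4 is 5.44 and 4.00 in ICR and 101 and 111 in DBA.

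All 3 measured beaded filament chains of type VI passed the filter, and their smoke differences were within 0.11 of 0 on each brightest probe set. Col6a1 (95493_at) read 9.52 and 9.68 in C57, 9.55 and 9.62 in DBA, and 9.23 and 9.32 in ICR, a shared difference of 0.11 (SE 0.16). Col6a2 read 8.46 and 8.51 in C57, 8.60 and 8.75 in DBA, and 8.03 and 8.12 in ICR, a difference of 0.10 (SE 0.18). Both ICR arrays of Col6a2 were below the other 4, by 0.59 against DBA (SE 0.22, adjusted p = 0.246). Col6a3, the longest type VI chain, read 9.33 and 9.26 in C57, 9.41 and 9.61 in DBA, and 9.27 and 9.14 in ICR. Its shared difference was closest to 0 of the 3 chains, with a 95% interval from -0.39 to 0.39.

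Col7a1, the anchoring fibril chain beneath stratified and airway epithelium, read 6.59 and 6.49 in C57, 5.83 and 6.10 in DBA, and 5.46 and 6.16 in ICR. The C57 arrays were the highest, and ICR was below C57 by a log2 difference of -0.73 (SE 0.30, adjusted p = 0.252). The shared smoke difference was 0.29 (SE 0.25). The sum of stratified and basal epithelium markers was also highest in C57, at 523 and 1172, with 347 and 151 in DBA and 129 and 201 in ICR. Of these markers 8 of 9 were measured, but only 2 passed the filter. Krt15 was below the constant on all arrays, and Krt13 was called lower in ICR than in C57 (-3.45, SE 0.54, adjusted p = 0.0157). Skeletal muscle markers, 12 of 12 measured, summed to 5773 and 4068 in C57, 1127 and 590 in DBA, and 377 and 557 in ICR. The part of either tissue in the collagen differences between strains was not tested.

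Of the fibril-associated collagens, 7 chains were measured and 4 passed. Col9a1, a chain of the type IX collagen that coats cartilage fibrils, read 5.79 and 5.77 in C57, 5.16 and 5.48 in DBA, and 6.14 and 4.56 in ICR. The ICR pair decided its shared difference of -0.43 (SE 0.37): the deposited intensity there was 58.7 and 7.62, the latter below the constant, so the size depends on that constant. Col9a2 read 6.27 and 6.01 in C57, 6.37 and 6.08 in DBA, and 6.03 and 6.51 in ICR. Col9a3 (102070_at) read 6.32 and 6.02 in C57, 6.21 and 5.94 in DBA, and 5.73 and 6.08 in ICR. These partner chains of type IX were lower with smoke in C57 and DBA and higher in ICR, the reverse of Col9a1 in DBA and ICR, but without scaling the ICR differences were -0.41 and -0.49 and that of Col9a3 in DBA was 0.02. Cartilage markers, 9 of 13 measured, summed to between 553 and 750 on control arrays and between 499 and 761 on smoked arrays, and Matn1, Hapln1 and Epyc were below the constant on every array.

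Col14a1, a fibril-associated chain of dense connective tissue, read 5.56 and 5.85 in C57, 5.60 and 5.74 in DBA, and 6.38 and 5.92 in ICR. Both ICR arrays were above the other 4 on this scale, though in deposited intensity the ICR control array was the highest and the ICR smoked array the lowest of the 6. The smoke difference was -0.01 (SE 0.25). Col8a1, a short chain of vessel walls, read 5.74 and 5.99 in C57, 6.16 and 5.76 in DBA, and 6.12 and 6.81 in ICR. Control and smoked values overlapped, and the ICR smoked array, highest on this scale, was lowest in deposited intensity (47.9, against 48.7 to 77.2 on the others).

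The multiplexins Col15a1 and Col18a1 carry sugar chains at the outer face of basement membranes, and Col18a1 releases endostatin. Col15a1 read 6.75 and 6.54 in C57, 6.11 and 6.27 in DBA, and 5.59 and 5.45 in ICR, in deposited units 113 and 94.5, 74.7 and 103, and 37.0 and 16.5. The strains did not overlap on the normalized scale: C57 was highest and ICR lowest. ICR was below C57 by -1.13 (SE 0.28, 95% interval -1.76 to -0.50, adjusted p = 0.0789) and below DBA by -0.67 (SE 0.28, adjusted p = 0.288). The first of these passed only when either DBA array was left out, which leaves 1 DBA array in the fit. The share of all probe sets called in those fits is not given here, and no weight is put on the pass. The estimate was the same in those fits while its SE rose to 0.35, and the direction was also the same with median scaling (-1.15) and with no scaling (-1.74).

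Col18a1 had 3 probe sets above the filter. Probe set 99638_at read 7.88 and 7.62 in C57, 7.80 and 7.73 in DBA, and 6.87 and 7.51 in ICR, whereas 101882_s_at read 4.77 and 5.39 in C57, 6.14 and 6.13 in DBA, and 5.42 and 5.08 in ICR. On the latter, DBA exceeded C57 by 1.06 (SE 0.34, adjusted p = 0.227), while on the former the DBA minus C57 difference was 0.02 (SE 0.28). The probe sets of this chain therefore gave unlike strain differences.

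Col13a1, a transmembrane collagen at cell adhesions, read 6.94 and 6.93 in C57, 7.60 and 7.37 in DBA, and 7.64 and 8.18 in ICR (102261_f_at). On this scale C57 was lowest and ICR highest without overlap. ICR exceeded C57 by 0.98 (SE 0.27, 95% interval 0.37 to 1.58, adjusted p = 0.105). As for Col15a1, this passed only when either DBA array was left out, with the estimate unchanged and the SE at 0.31. No weight is put on that pass. The same difference was 0.81 with median scaling and 0.21 with no scaling. The other probe set, 102262_r_at, gave 0.71 for the same comparison (SE 0.36, adjusted p = 0.338), in the same direction.

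Counting all strain comparisons, no collagen probe set was called. In DBA against C57 none of 29 was called, where 1.73% of all probe sets were, and 2 had an unadjusted p below 0.05, both higher in DBA. In ICR against C57 none was called, where 2.29% of all were, and 5 had an unadjusted p below 0.05, with Col4a1, Col4a5 and Col13a1 (102261_f_at) higher in ICR and Col7a1 and Col15a1 lower. In ICR against DBA none was called, where 1.17% of all were, and 5 had an unadjusted p below 0.05: Col4a1 was higher in ICR, and Col1a1 (94305_at), Col6a2, Col15a1 and Col18a1 (101882_s_at) were lower. Over all 7453 probe sets an unadjusted p below 0.05 was reached by 858, 1345 and 1160, or 11.5%, 18% and 15.6%, against 6.9%, 17.2% and 17.2% of the collagen probe sets. On the quantile normalized scale the 95% interval excluded 2-fold for 20, 15 and 15 of the 29. The comparisons share arrays, DBA against C57 and ICR against C57 sharing the C57 pair.

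Values of 2 strains did not overlap for 9 collagen probe sets between DBA and C57, where 52.5% of all probe sets were apart. They did not overlap for 16 of 29 between ICR and C57 (51.2% of all) and for 13 of 29 between ICR and DBA (47.9% of all). In that order, the median differences over the 29 probe sets were 0.07, 0.11 and -0.09, beside -0.03, -0.02 and 0.01 over all tested. Unscaled, the median of all probe sets shifted to 0.14, -0.73 and -0.89, and 25, 4 and 0 of the 29 collagen probe sets were then above 0 for DBA minus C57, ICR minus C57 and ICR minus DBA.

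**Figure D4:**
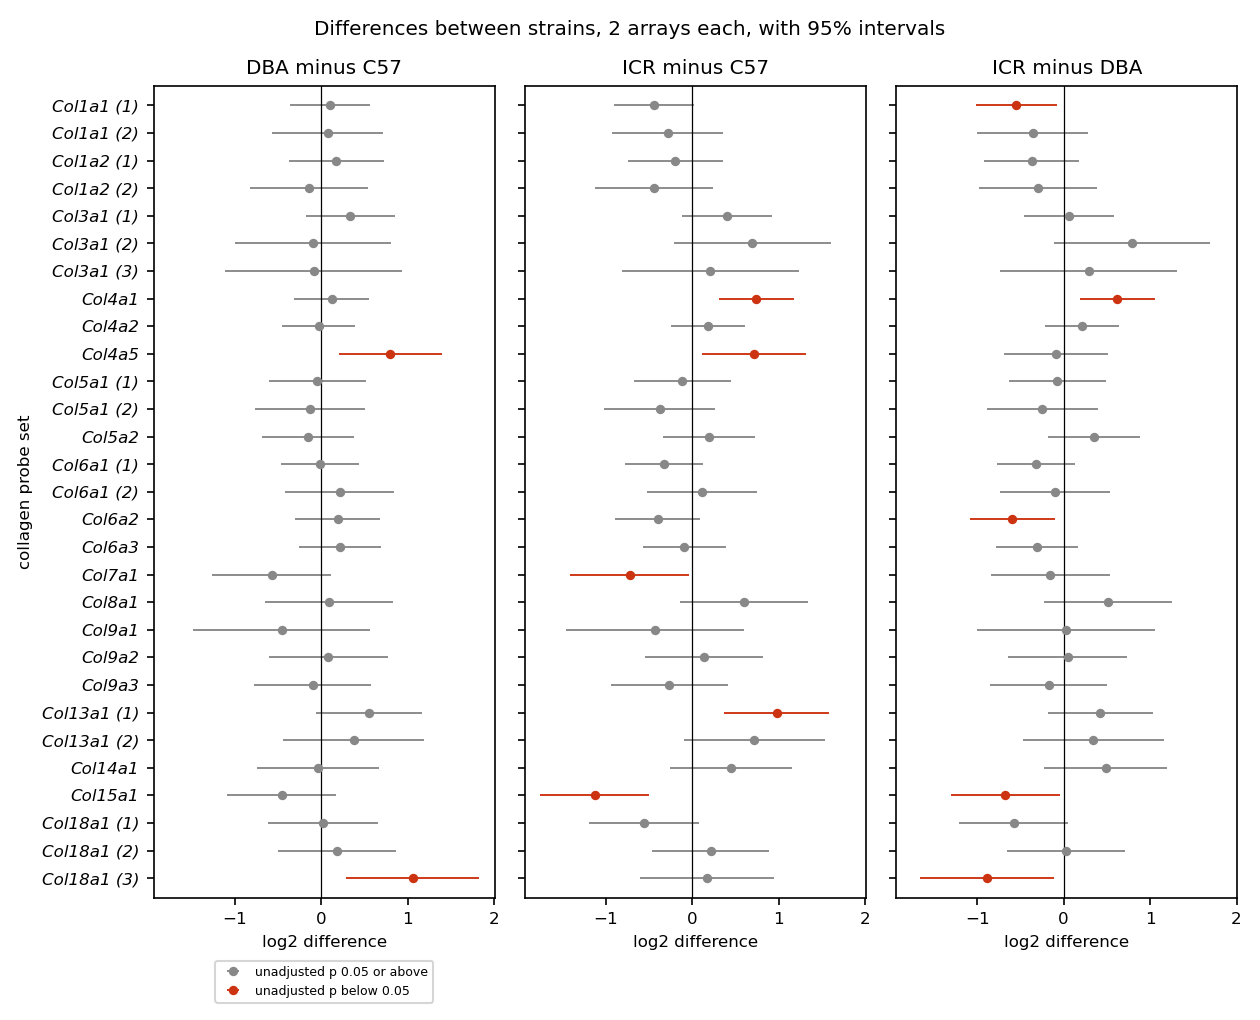
Log2 differences between strains (horizontal axis, 2 arrays per strain) of the 29 collagen probe sets with 95% intervals; red marks an unadjusted p below 0.05. Red points number 2, 5 and 5 from left to right, and no point passed the adjusted threshold.

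Within single strains, with 1 array per group and so no test, ICR showed the widest collagen differences. None of 29 probe sets differed at least 2-fold between the smoked and control array of C57, where 1.21% of all did, and none in DBA, where 3.05% did. In ICR 4 of 29 did, 1 higher and 3 lower, where 6.48% of all did, 2.79% higher and 3.69% lower. These were Col1a1 (103709_at), higher with smoke by 1.02 (deposited 160 and 170), and Col3a1 (161984_f_at and 102990_at) and Col9a1, with differences of -1.03, -1.09 and -1.58. Centring on a common median left 2 of them in ICR and no scaling gave 12, the share of all probe sets not being counted for either. Unscaled, the log2 median of all probe sets was 5.91 on the ICR control and 5.09 on the ICR smoked array. The count of 12 is therefore not read as a result about collagens. The median size of a difference was 0.23, 0.26 and 0.38 in C57, DBA and ICR over the collagen probe sets, and 0.19, 0.20 and 0.34 over all.

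Whether 1 strain responded unlike the others was fitted as an extra smoke effect of that strain, with 1 residual degree of freedom. limma pulls the variance of each probe set toward a trend over all of them, to an unlike degree in each of these fits. The counts of the 3 strains are therefore not directly comparable. No collagen probe set was called for C57, DBA or ICR, where 0.134%, 0.711% and 0% of all probe sets were, and 0, 1 and 6 of 29 had an unadjusted p below 0.05, beside 224, 294 and 1067 of all. The 4 with the largest size were Col9a1 in ICR at -1.73 (SE 0.42, adjusted p = 0.302), Col3a1 (102990_at) in DBA at 1.55 (SE 0.66, adjusted p = 0.784) and in ICR at -1.55 (SE 0.55, adjusted p = 0.333), and Col3a1 (161984_f_at) in ICR at -1.51 (SE 0.37, adjusted p = 0.302). Col1a1 (103709_at), Col1a2 (161156_r_at) and Col18a1 (99638_at) had positive extra effects in ICR of 0.89, 0.99 and 0.81, though without scaling all 29 were below 0 in ICR. The intervals were wide and reached 2-fold for 28, 28 and 23 of the 29. When the arrays were not scaled, 8 collagen probe sets were called lower in ICR, where the median of all probe sets was itself at -0.99.

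Probe sets of the same chain did not always move together. For the 7 chains with several probe sets above the filter, the range of their smoked minus control differences had a median of 0.45 for C57, 0.41 for DBA and 0.92 for ICR. Signs were opposed in 5, 3 and 6 of the 7 chains. Col1a1 differed most in ICR, where 94305_at gave -0.15 and 103709_at gave 1.02. Col1a2 was opposed in all strains, with 101130_at at 0.55, 0.28 and -0.22 and 161156_r_at at -0.35, -0.56 and 0.53 in C57, DBA and ICR. The 3 probe sets of Col3a1 were all higher with smoke in DBA (0.43 to 0.98) and all lower in ICR (-1.09 to -0.07).

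**Figure D5:**
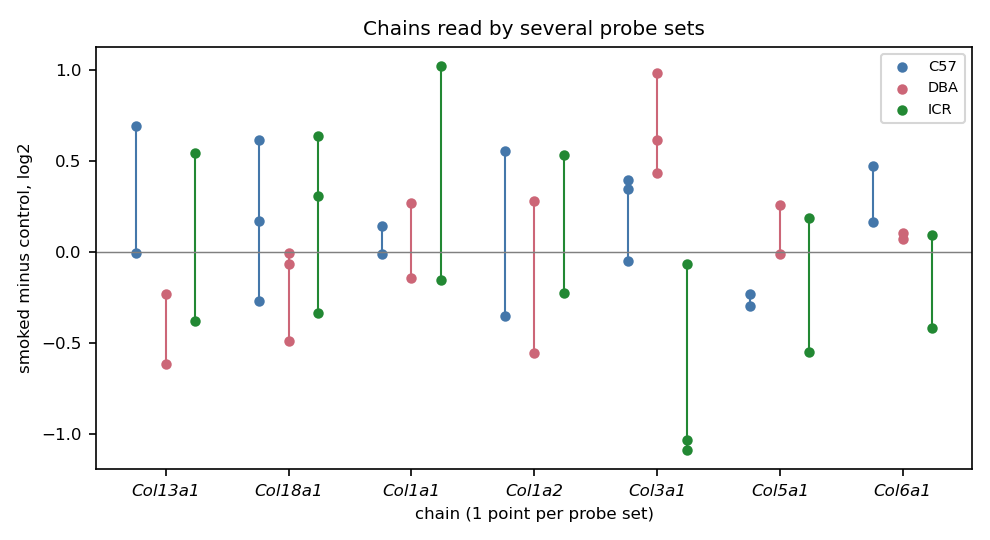
Smoked minus control difference in normalized log2 intensity (vertical axis) for chains with several probe sets above the filter; each point is a probe set and a line spans the probe sets of 1 chain in 1 strain. Lines that cross 0 have opposed signs, in 5 chains for C57, 3 for DBA and 6 for ICR.

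The 11 chains below the filter were Col2a1, Col10a1, Col11a1 and Col11a2 of cartilage, Col4a3 and Col4a4, which join Col4a5 in the mature alveolar basement membrane, Col17a1 of hemidesmosomes, and Col12a1, Col19a1, Col22a1 and Col26a1. Col22a1 was below the constant on all 6 arrays. In a fit without the filter none of the 15 probe sets was called in any comparison, where between 0 and 0.531% of 12422 probe sets were. Col4a4 came closest: its deposited intensity was 16.7 and 35.9 in C57, 101 and 111 in DBA, and 5.44 and 4.00 in ICR. The strains did not overlap, with DBA highest, and both ICR values lay below the constant. ICR against DBA gave -2.53 (SE 0.38, adjusted p = 0.0608), a size that depends on the constant.

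Its partner Col4a3, which lies beside it head to head on chromosome 1, read 1.36 and 0.799 in C57, 3.04 and 14.1 in DBA, and 27.7 and 2.56 in ICR. Only 2 of these 6 values exceeded the constant, on the DBA smoked and ICR control arrays, and no order of strains can be read from them. Col17a1 read 33.3 and 68.8 in C57, 10.6 and 24.6 in DBA, and 15.5 and 4.18 in ICR. It was highest in C57, as was the sum of the stratified epithelium markers. Its differences from C57 were -1.41 in DBA (SE 0.43, adjusted p = 0.318) and -1.39 in ICR (SE 0.43, adjusted p = 0.212). With smoke, Col17a1 and the marker sum were both higher in C57 but went opposite ways in DBA and ICR. The sum was 347 and 151 in DBA and 129 and 201 in ICR. Only 2 of its markers passed the filter, and the part of that epithelium in the Col17a1 values was not tested.

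Other genes of the collagen pathway were taken from lists of folding and crosslinking enzymes, breakdown enzymes and inhibitors, receptors, fibril-bound proteins, TGF-beta and CCN ligands, and other basement membrane proteins. Of 95 genes, 69 were measured and 57 tested. None was called for smoke, where 0.0403% of all probe sets were. In all pairs 9 of the 57 were higher and 2 lower, where 9.86% and 7.77% of all probe sets were, and the median was 0.08, beside 0.01 over all. Timp3, an inhibitor of metalloproteinases bound to matrix, was higher by 0.32 in C57, 0.39 in DBA and 0.40 in ICR, a shared 0.37 (SE 0.14, adjusted p = 1.0). Its deposited intensity in ICR was 1885 and 1520, lower with smoke before scaling. The 16 folding and crosslinking genes above the filter had a median difference of 0.18 in the C57 pair, -0.15 in the DBA pair and 0.07 in the ICR pair, with 10, 4 and 9 of 16 higher. Serpinh1, the collagen chaperone of the endoplasmic reticulum, differed by 0.18, 0.73 and -0.57.

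Between strains 2 of the 57 were called in DBA against C57, 1 in ICR against C57 and none in ICR against DBA, where 1.73%, 2.29% and 1.17% of all probe sets were, so the calls were near the background. Timp2, another metalloproteinase inhibitor, was higher in DBA than in C57 by 1.90 (SE 0.37, adjusted p = 0.0400), with deposited intensities of 484 and 549 against 66.2 and 194. Ddr2, a receptor tyrosine kinase for fibrillar collagen, was higher in DBA by 1.43 (SE 0.29, adjusted p = 0.0456), at 259 and 286 against 63.9 and 101. Hspg2, the core protein perlecan of basement membranes, was lower in ICR than in C57 by -1.41 (SE 0.26, adjusted p = 0.0290), at 76.0 and 51.2 against 349 and 282. Of the fibroblast markers, Mfap4 was called higher in ICR than in C57 by 1.36 (SE 0.24, adjusted p = 0.0254) and Fbln1 lower in ICR than in DBA by -1.68 (SE 0.23, adjusted p = 0.0120). The gelatinase Mmp9 read 459 on the DBA control array and between 31.0 and 68.0 on the others. Neutrophil markers, 7 of 8 measured, summed to 14484 on that array and to between 853 and 3121 on the others, and their part was not tested.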

How the data were processed

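The authors deposited 1 value per probe set and array, an intensity on a linear scale from 0.0305 to 10579. Neither their summary method nor their scaling is named: both stay not given in the sources used here. Values were transformed as log2 of the deposited intensity plus 8.05, the 20th percentile of all values. Because array medians spread over 1.45 on the log2 scale, above a limit of 0.1, arrays were quantile normalized. After dropping 66 control probe sets, a filter kept those whose mean exceeded the 40th percentile (7453). limma 3.58.1 in R 4.3.3 fitted strain and smoke on all 6 arrays, with eBayes and a mean trend, leaving 2 residual degrees of freedom. An extra smoke term for 1 strain left 1, so its single pair is assumed to vary like the others. eBayes pulled the variance of each probe set toward a trend over all of them. Tests and intervals therefore had more degrees of freedom than these residual ones. All p-values are 2-sided, adjusted by Benjamini-Hochberg over the probe sets kept. The number of arrays limits the precision.

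Gene symbols came from the platform annotation (10855 probe sets with 1 symbol, 396 with several, 1237 with none). All 44 collagen probe sets matched RefSeq by gene identifier, and 0 symbols changed. A chain was represented by its probe set of highest mean, and values on every array were given for that probe set and where probe sets of a chain disagreed. From other lists, called genes and the most intense were eligible, and Serpinh1, Timp3, Mmp9 and Krt13 were named with values known. The members and all lists were chosen with earlier results of these data known. The fits were tested on simulated data. Alternatives were other constants, filters, scalings, variance priors and folds, no strain block, and each array or pair left out. Plots used matplotlib 3.10.9 in Python 3.11.15.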

Additional observations from a re-analysis of the deposited data

How the results depend on the processing

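No collagen probe set was called for smoke, for DBA against C57, for ICR against DBA or for the extra effects of C57 and DBA under any alternative run. The exceptions were ICR against C57 and the extra effect of ICR. In ICR against C57, Col13a1 (102261_f_at) and Col15a1 passed when a DBA array was left out. The share of all probe sets called in those fits is not given here. For the extra effect of ICR, no scaling gave 8 calls (Col1a2, Col3a1 with 3 probe sets, Col9a1, Col6a1, Col4a5 and Col14a1). In that fit 1780 of 7453 probe sets were called lower and 7 higher. At 2-fold within a strain the counts were 0 in C57 and DBA and 4 in ICR. A 1.5-fold threshold gave 2, 3 and 7 of 29, where 7.53%, 9.73% and 25.2% of all probe sets reached it. A 3-fold threshold gave 0 in ICR, where 0.953% of all did. In DBA a constant of 1, no scaling and no filter each gave 1, and in ICR a constant of 32 gave 0, median scaling 2 and no scaling 12. For these settings the share of all probe sets was not counted, so the counts have no background beside them. The cause was not tested. No called value reversed. Over all probe sets, leaving out the filter gave 1, 66, 44 and 38 calls for smoke, DBA minus C57, ICR minus C57 and ICR minus DBA in place of 3, 129, 171 and 87. Calls between strains, in that order, were 65 higher and 64 lower, 69 and 102, and 38 and 49, and without scaling 64 and 21, 7 and 138, and 4 and 257. The sign of the estimate of a single probe set changed, uncalled on both sides, in 37 of 335 recomputed values for smoke, in 47 (DBA and C57), 32 (ICR and C57) and 34 (ICR and DBA) of 393 between strains, and in 8, 14 and 12 of 219 for the extra effects of C57, DBA and ICR. No paired analysis was possible because each group holds a single array and every sample carries the same number, beyond the strain block already in the fit. Signal over background limits the chains below the filter, and Col9a1 on the ICR smoked array.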
